A study of Rattus norvegicus with 24 samples.

Results

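The comparison described here is that of BRD0476 alone with its vehicle at 6 h: 3 arrays of INS-1E cells that received 10 uM BRD0476 and no cytokines against 3 arrays of cells that received DMSO and no cytokines. These are 6 of the 24 Affymetrix arrays of the study, chosen by treatment and time as labelled, and all 14217 genes named in the annotation were tested. INS-1E is an established rat insulinoma line that makes insulin and serves as a model of the pancreatic beta cell, and the labels give pancreatic islets as its tissue. The study combined BRD0476 or DMSO with or without a mixture of IL-1b, IFN-g and TNF-a, for 6 or 12 h, in 8 groups of 3 arrays. The comparison asks which transcripts the compound changed in cells without cytokines. The same pair of treatments at 12 h without cytokines and at 6 h with cytokines is used below only to show where the result was the same or differed, and neither shares an array with it.

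BRD0476 was described as a small molecule that protects beta cells from cytokine-induced death, and it has been linked to the deubiquitinase USP9X and to JAK-STAT signalling downstream of interferon-gamma. Beta cells make and fold very large amounts of proinsulin, so their endoplasmic reticulum (ER) depends on chaperones and on the unfolded protein response, and shortage of amino acids or ER stress acts through the transcription factor ATF4. Oxidative and electrophilic stress acts through NRF2, which switches on detoxifying enzymes. The identity of the cell is held by factors such as PDX1, NKX6-1 and MAFA.

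Values are log2 of the deposited array intensity, and a change is the mean of the 3 BRD0476 arrays minus the mean of the 3 DMSO arrays, given ± its standard error. A gene is said to rise or fall when its adjusted p from limma, over all genes, was under 0.05. The labels do not say that the 3 arrays of a group came from separate cultures. A p-value here thus covers only how far arrays spread within a group, a spread pooled over all 24 arrays of the study. The middle of all values on the 6 arrays lay at 5.52, with quartiles of 3.84 and 8.08, and genes near the lower quartile are close to background. The arrays were alike: medians ran from 5.51 to 5.57, and correlations over genes were 0.9953 to 0.9979 within a group and 0.9942 to 0.9968 between groups. DMSO replicate 2 stood apart from the rest, with the lowest array weight of the 6 (0.32, against 0.78 to 2.97) and -21.27 on the first principal component, which held 36.0% of the variance. BRD0476 replicate 1 read high for a few interferon genes, as given below. A call that was lost when an array was left out is given below with the values without that array.

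The defining genes of the labelled cell type were bright. In DMSO, Ins1 read 14.53, Ins2 14.41 and the glucose transporter gene Slc2a2 13.23, all far above the upper quartile. Of 16 leukocyte markers 0 lay above the upper quartile, and of 11 endothelial, 16 fibroblast and 17 acinar and duct markers 1, 2 and 2 did. The highest marker was Fn1 for fibroblasts (11.50), Krt7 for ducts (11.16) and Gcg for other islet cells (10.29).

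Few genes were called with BRD0476 alone, and most of them changed by little. Of 14217 genes, 502 were called (3.53%), of which 239 rose (1.68%) and 263 fell (1.85%). At an unadjusted limma p under 0.05 there were 2151 genes, so the calls need not count every gene that changed. At least a 2-fold change was reached by 3 genes that rose and 5 that fell, and the median size of the change among called genes was 0.39 on the log2 scale, against 0.09 over all genes. The median over all genes was close to 0, at 0.02. The called genes were brighter than most, with a median DMSO level of 8.54 for those that rose and 8.63 for those that fell, against 7.26 for all genes. In 498 of the 502 the 3 arrays of one treatment all lay beyond the 3 of the other, a pattern that 20.5% of all genes showed. The number of calls depended on the fit: with only these 6 arrays 108 genes were called, 100 of them among the 502, and leaving out one array left between 286 (without BRD0476 replicate 1) and 399. Without DMSO replicate 2 there were 365 calls, 299 of them shared with the 502. No called gene changed sign under any setting, but this was largely fixed in advance. Groups that do not overlap keep their direction whichever array is left out.

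**Figure D1:**
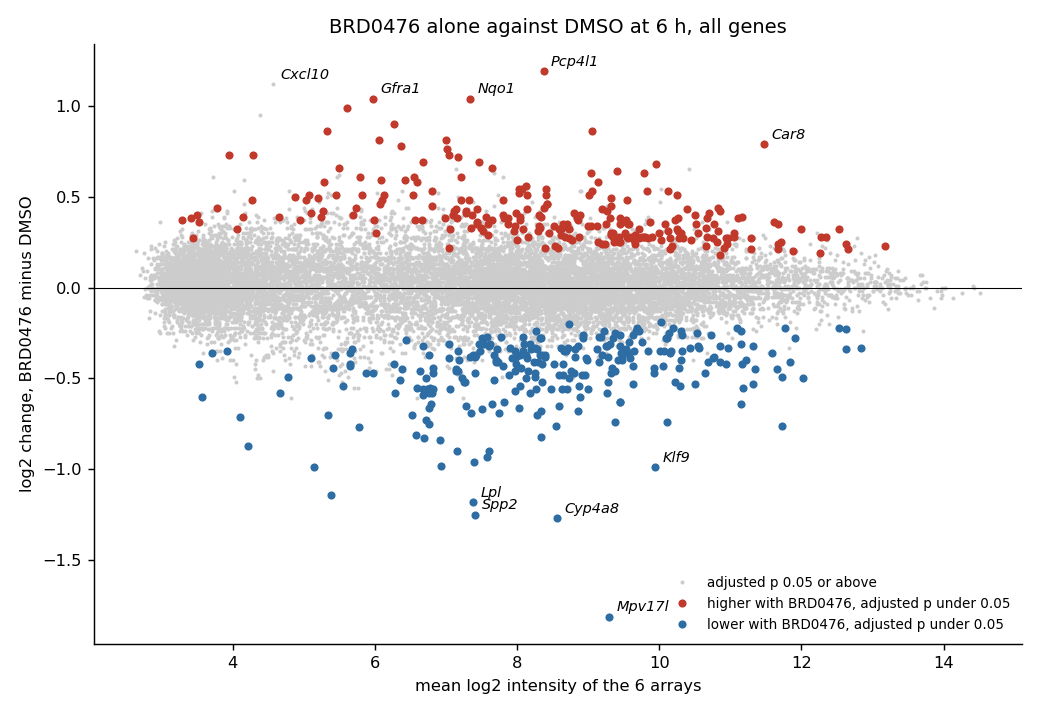
Each point is a gene, with its mean log2 intensity over the 6 arrays on the horizontal axis and its log2 change at 6 h (BRD0476 minus DMSO, without cytokines) on the vertical axis. Red points are the 239 genes that rose and blue points the 263 that fell at adjusted p under 0.05, most of them by less than 1 on the log2 scale; Mpv17l lies lowest and Pcp4l1 highest among called genes, and Cxcl10 is high but not called.

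The genes that rose furthest belonged to several kinds of function, among them detoxification, growth-factor signalling and calcium signalling. The largest changes were taken among called genes with non-overlapping arrays and a higher group mean of at least 6. Lrrc39, Gfra1, Spry1, Car10 and Relb reached that level only with BRD0476. Pcp4l1, a relative of the calmodulin-binding protein PCP4, read 7.64, 8.02 and 7.68 in DMSO and 8.99, 8.90 and 9.03 with BRD0476. The groups lay nearly a full log2 unit apart at their closest, and the gene rose by 1.19 ± 0.12 (limma adjusted p = 6.58e-06). A dimmer probe set of Pcp4l1 also rose, by 0.94. Nqo1, the quinone reductase that is a textbook NRF2 target, read 6.74, 7.05 and 6.65 in DMSO and 7.88, 7.78 and 7.92 with the compound, and rose by 1.04 ± 0.12 (adjusted p = 2.9e-05). Gfra1, the co-receptor for the neurotrophic factor GDNF, read 5.54, 5.67 and 5.15 against 6.53, 6.60 and 6.36 and rose by 1.04 ± 0.13. All BRD0476 arrays were above all DMSO arrays for each of these genes, as the choice of genes required.

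Car8, a carbonic anhydrase relative that binds the IP3 receptor of the ER, was the brightest of the large rises. It read 11.10, 11.03 and 11.10 in DMSO and 11.92, 11.97 and 11.72 with BRD0476, a rise of 0.79 ± 0.08 (adjusted p = 8.11e-06). Its relative Car10 rose by 0.90 ± 0.21, a call that was lost without DMSO replicate 1 or 3 or BRD0476 replicate 1 or 3 (changes of 0.79 to 0.87, adjusted p = 0.062 to 0.0851). The mitochondrial creatine kinase gene Ckmt1 rose by 0.86 ± 0.10, and the vitamin E carrier gene Afm by 0.81 ± 0.12. Spry1, a feedback inhibitor of receptor tyrosine kinase signalling, rose by 0.81 ± 0.13. The leucine-rich repeat gene Lrrc39 (0.99 ± 0.17), the coatomer subunit gene Copz2 (0.76 ± 0.10), the protease inhibitor gene Serpinb9b (0.72 ± 0.11) and the AMPA receptor subunit gene Gria2 (0.69 ± 0.11) rose too. A dimmer probe set of Lrrc39 changed by 0.38. Kdelr3, a receptor that returns chaperones to the ER, rose by 0.69 ± 0.09. Relb, a subunit of the non-canonical NF-κB pathway, rose by 0.78 ± 0.16 (adjusted p = 0.00609; 0.0613 with only the 6 arrays). Pakap completed the 15 largest rises with 0.73 ± 0.13, but the mean of its 4 probe sets changed by 0.33 (adjusted p = 0.184).

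Lipid enzymes, a nucleotidase and transcriptional regulators were among the largest falls. Mpv17l, which encodes a small membrane protein of the Mpv17 family, read 10.16, 9.99 and 10.45 in DMSO and 8.24, 8.69 and 8.24 with BRD0476. Every BRD0476 array was more than 1 log2 unit below every DMSO array. The change was -1.81 ± 0.17, a 3.51-fold fall (adjusted p = 2.27e-06), and its dimmer probe set fell by 1.92. Lpl, the lipoprotein lipase gene, read 8.02, 8.03 and 7.86 against 6.90, 6.55 and 6.93 and changed by -1.18 ± 0.10 (adjusted p = 3.48e-07). Cyp4a8, a fatty acid hydroxylase gene, fell by 1.27 ± 0.13. Spp2, which encodes a secreted phosphoprotein, read 8.05, 7.99 and 8.04 against 6.81, 6.68 and 6.84 and fell by 1.25 ± 0.10.

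Klf9, a zinc finger transcription factor gene, varied little between arrays of a group. It read 10.47, 10.44 and 10.42 in DMSO and 9.46, 9.47 and 9.42 with BRD0476, a change of -0.99 ± 0.10 (adjusted p = 4.93e-06). The mean of its 3 probe sets, of which 1 lay near background, changed by -0.58. Nt5e, the ecto-nucleotidase CD73 that makes adenosine, fell by 0.98 ± 0.15, and Ppp1r17, which encodes a protein phosphatase inhibitor, by 0.93 ± 0.07. The RNA-binding protein gene Mex3a and the transglutaminase gene Tgm2 each fell by 0.90 ± 0.10. Dimmer probe sets of Mex3a changed by -0.76 and -0.29, and a dimmer probe set of Tgm2 by -0.34. The synaptic scaffold gene Shank2 fell by 0.82 ± 0.10 (-0.50 for the mean of its 2 probe sets), Lrtm2 by 0.83 ± 0.12 and Micalcl by 0.96 ± 0.14. Dock4, an activator of small GTPases, fell by 0.81 ± 0.16, with adjusted p = 0.00355 and 0.0978 with only the 6 arrays. The remaining members of the 15 largest falls, Id3 and Bmal1, are given with their pathways.

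**Figure D2:**
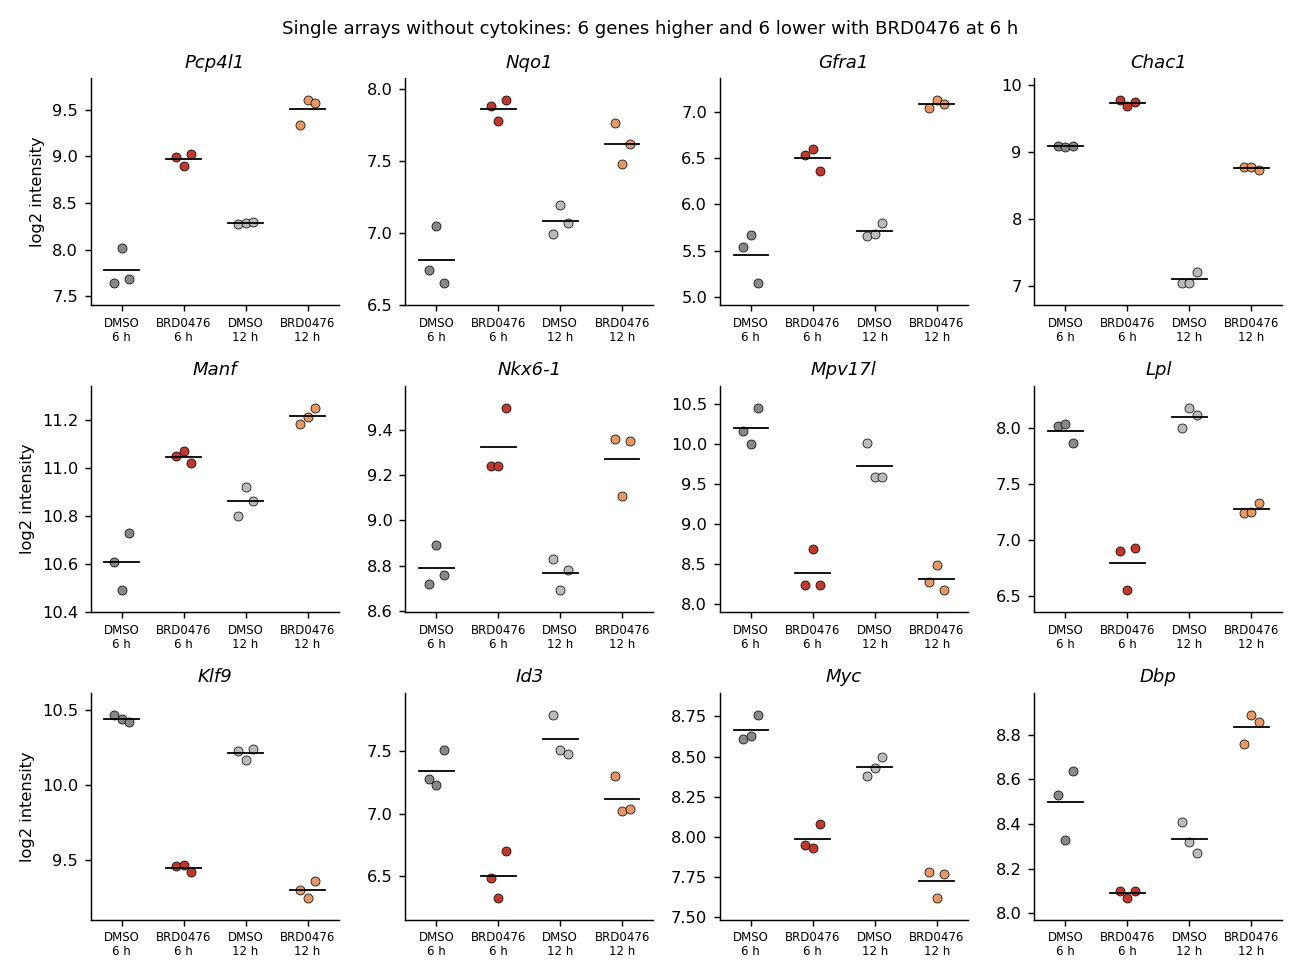
Log2 intensity of 12 genes on the single arrays without cytokines, for DMSO and BRD0476 at 6 h and at 12 h; each point is an array and each bar the mean of 3. For every gene the 3 BRD0476 arrays at 6 h lie entirely above or entirely below the 3 DMSO arrays, for example 9.68 to 9.77 against 9.08 to 9.09 for Chac1, and Dbp is lower with the compound at 6 h and higher at 12 h.

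Several genes of the ATF4 and amino acid stress list rose, by small amounts. Of 36 measured members 8 rose, against 1.68% of all genes, and 0 fell, and 32 had a change above 0, with a list median of 0.20 against 0.02 over all genes. Chac1, which degrades glutathione, read 9.09, 9.08 and 9.09 in DMSO and 9.77, 9.68 and 9.74 with BRD0476. No BRD0476 array came near the DMSO arrays, and Chac1 rose by 0.64 ± 0.10 (adjusted p = 0.000636). Trib3, a pseudokinase that restrains ATF4 and AKT, rose by 0.56 ± 0.12 (0.50 without BRD0476 replicate 1, adjusted p = 0.0513), and the stress-response gene Nupr1 by 0.41 ± 0.06 (10.46, 10.58 and 10.45 against 10.95, 10.94 and 10.84). Mthfd2, a mitochondrial folate enzyme, rose by 0.36 ± 0.08 (0.31 without DMSO replicate 3, adjusted p = 0.0583). The cystine transporter gene Slc7a11 rose by 0.59 ± 0.15, a call lost without DMSO replicate 1 or 3 or BRD0476 replicate 1 (0.47 to 0.57, adjusted p = 0.0819 to 0.173). The calls of Atf4 itself (0.28 ± 0.07) and of the mTOR inhibitor gene Ddit4 (0.36 ± 0.09) were each lost when any array other than DMSO replicate 2 was left out (0.23 to 0.29, adjusted p = 0.054 to 0.11, and 0.30 to 0.39, adjusted p = 0.0528 to 0.117). Cebpb, a partner of ATF4, rose by 0.26 ± 0.06, and its call was lost without DMSO replicate 1 or 3 or BRD0476 replicate 1 or 3 (0.22 to 0.26, adjusted p = 0.0508 to 0.101). The number of risers was 3 without BRD0476 replicate 1, 4 without DMSO replicate 1 or 3, and 3 with only the 6 arrays. BRD0476 replicate 1 was the highest array for 20 of the 36 members (55.6%, against 20.6% of all genes), while the list median relative to DMSO was 0.23, 0.21 and 0.20 on the 3 BRD0476 arrays. Ddit3, which encodes the pro-apoptotic factor CHOP, changed by 0.15 (95% interval -0.07 to 0.37, adjusted p = 0.553).

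The promoters of 3 of these risers are shown because the C/EBP-ATF element, the site class through which ATF4 is known to act with C/EBP partners, was found in them. The letters searched were TGATGNAA on both strands of the 250 bases before each RefSeq gene start of rat build GRCr8, and capitals mark the match, which in all 3 lies on the strand opposite to the gene.
Chac1: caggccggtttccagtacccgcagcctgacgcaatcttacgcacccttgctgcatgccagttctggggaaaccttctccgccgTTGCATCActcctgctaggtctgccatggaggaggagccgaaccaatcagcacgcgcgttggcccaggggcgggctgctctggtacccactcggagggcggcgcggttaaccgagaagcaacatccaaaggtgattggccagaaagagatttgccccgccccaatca
Trib3: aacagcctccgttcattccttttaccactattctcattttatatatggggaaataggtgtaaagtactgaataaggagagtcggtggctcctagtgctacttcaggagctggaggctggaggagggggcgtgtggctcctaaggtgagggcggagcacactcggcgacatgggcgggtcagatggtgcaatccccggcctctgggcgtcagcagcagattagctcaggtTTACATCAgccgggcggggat
Nupr1: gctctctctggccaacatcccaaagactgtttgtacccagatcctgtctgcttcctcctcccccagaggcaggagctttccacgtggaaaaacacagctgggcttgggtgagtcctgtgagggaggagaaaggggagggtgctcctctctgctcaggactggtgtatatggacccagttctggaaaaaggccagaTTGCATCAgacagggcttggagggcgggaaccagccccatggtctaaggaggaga
The Chac1 window is chr3:126795881-126796130 on the plus strand, with the match at -167 to -160 from the start. The Trib3 window is chr3:161275534-161275783 on the minus strand, with the match at -21 to -14, and the Nupr1 window is chr1:190645902-190646151 on the minus strand, with the match at -55 to -48. These 3 were the matches among the 8 risers of the list. Of the 33 list members with a promoter sequence 7 held the letters, against 3.4% of all 33469 promoters. A match is a description of the sequence and not evidence of binding.

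Some ER chaperone genes rose too, by still smaller amounts on a high level. In the list of ER chaperones and the unfolded protein response 7 of 29 measured members rose, against 1.68% of all genes, and 0 fell, 27 had a change above 0, and the median was 0.18. Manf, a secreted ER stress protein, read 10.61, 10.49 and 10.73 in DMSO and 11.05, 11.07 and 11.02 with BRD0476. The groups did not overlap, and Manf rose by 0.44 ± 0.07 (adjusted p = 0.00133). Sec61a1, the channel through which new proteins enter the ER, rose by 0.36 ± 0.06 (11.49, 11.36 and 11.46 against 11.84, 11.83 and 11.72), and the co-chaperone gene Dnajb11 by 0.25 ± 0.05 (0.22 without BRD0476 replicate 1, adjusted p = 0.0566). Creld2, an ER disulfide isomerase gene, rose by 0.38 ± 0.09, and its call was lost without DMSO replicate 2 or BRD0476 replicate 1 or 2 (0.27 to 0.36, adjusted p = 0.0647 to 0.0854). Pdia6, which forms disulfide bonds, rose by 0.21 ± 0.05, a call lost without DMSO replicate 1 or 2 or BRD0476 replicate 1 or 2 (0.17 to 0.20, adjusted p = 0.0885 to 0.15). Hspa5, the master chaperone BiP, read 13.09, 12.94 and 13.16 against 13.31, 13.30 and 13.25 and rose by 0.23 ± 0.06 (adjusted p = 0.0306), which held only without DMSO replicate 3 (otherwise 0.16 to 0.24, adjusted p = 0.0525 to 0.148). Sdf2l1 (0.28 ± 0.07) was called only without BRD0476 replicate 3 when an array was left out (otherwise 0.22 to 0.29, adjusted p = 0.0703 to 0.185). The count of risers was 2 without BRD0476 replicate 1, 3 without BRD0476 replicate 2 or without DMSO replicate 2, 4 without DMSO replicate 1, and 1 with only the 6 arrays.

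The promoter of Creld2 is shown because it holds the ER stress element, which the factors ATF6 and XBP1 are known to use. The letters searched were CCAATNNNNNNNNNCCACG on both strands, and capitals again mark the match, on the strand opposite to the gene.
Creld2: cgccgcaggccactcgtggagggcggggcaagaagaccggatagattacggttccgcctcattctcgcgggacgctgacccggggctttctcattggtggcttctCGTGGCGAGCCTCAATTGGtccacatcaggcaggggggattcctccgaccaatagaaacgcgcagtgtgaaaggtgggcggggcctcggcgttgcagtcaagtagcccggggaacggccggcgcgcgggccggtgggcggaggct
This RefSeq window is chr7:121789134-121789383 of GRCr8 on the plus strand, and the match lies at -145 to -127. Hspa5 held the element at -43 to -25, so 2 of the 4 risers with a promoter sequence had it. Of 23 list members with a promoter sequence 7 did, against 0.0657% of all promoters.

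**Figure D3:**
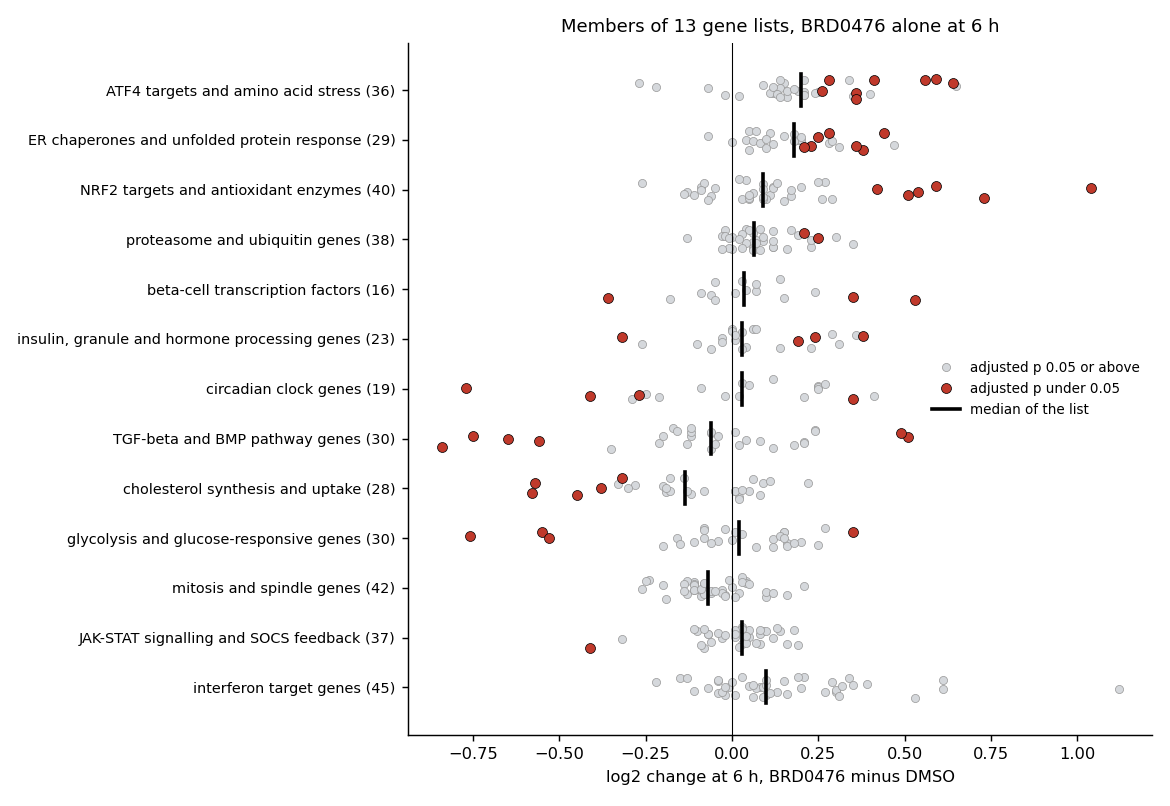
Each point is a measured member of one of 13 gene lists, placed by its log2 change at 6 h (BRD0476 minus DMSO, without cytokines), with the number of members in brackets. Red points passed adjusted p under 0.05 and the vertical bar is the median of the list, which lies at 0.20 for the ATF4 list, 0.18 for ER chaperones and -0.13 for cholesterol synthesis.

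NRF2 targets and antioxidant enzymes had 6 risers, against 1.68% of all genes, and 0 fallers among 40 measured members, with a median of 0.09. Beside Nqo1, the haem oxygenase gene Hmox1 read 7.84, 7.66 and 7.89 in DMSO and 8.43, 8.31 and 8.29 with BRD0476. The groups were well apart, and Hmox1 rose by 0.54 ± 0.08 (adjusted p = 0.00025). Ephx1, an epoxide hydrolase, rose by 0.42 ± 0.08 (adjusted p = 0.00369). Slc7a11, given above, belongs to this list too. The glutathione transferase gene Gstm1 rose by 0.51 ± 0.13, a call lost without DMSO replicate 1 or 3 or BRD0476 replicate 2 or 3 (0.40 to 0.52, adjusted p = 0.0688 to 0.131). Abcc2, an export pump for conjugates, rose by 0.73 ± 0.17 from a level near background (3.92), and its call was lost without DMSO replicate 1 or BRD0476 replicate 1 or 2 (0.61 to 0.73, adjusted p = 0.0527 to 0.0899). The count was 3 without DMSO replicate 1, 4 without DMSO replicate 3 or BRD0476 replicate 1 or 2, and 2, Nqo1 and Hmox1, with only the 6 arrays. BRD0476 replicate 1 was the highest array for 14 of the 40 members (35.0%). The core of the antioxidant response element, TGACNNNGC, was found in 1 of the 5 risers with a promoter sequence (Ephx1), in 9 of 36 list members and in 10.1% of all promoters.

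Among TGF-beta and BMP pathway genes 3 ID genes fell. ID proteins lack a DNA-binding domain and hold basic helix-loop-helix factors inactive, and their genes are classic BMP targets. Id3 read 7.28, 7.23 and 7.51 in DMSO and 6.49, 6.33 and 6.70 with BRD0476 and fell by 0.84 ± 0.12 (adjusted p = 0.00025). Id2 read 7.46, 7.67 and 7.68 against 6.84, 6.93 and 7.12 and fell by 0.65 ± 0.11. Id1 read 8.81, 8.98 and 8.92 against 8.24, 8.33 and 8.46 and fell by 0.56 ± 0.10 (adjusted p = 0.00195). In each of these genes the arrays of the 2 treatments did not overlap, and each call held with any array left out. Tgif1, a co-repressor of SMAD signalling, fell by 0.75 ± 0.12. The ligand gene Bmp2 rose by 0.51 ± 0.12, a call lost without DMSO replicate 1 or BRD0476 replicate 1 or 3 (0.42 to 0.49, adjusted p = 0.0606 to 0.0851). Bambi, a decoy receptor that blocks the pathway, read 9.12, 9.04 and 9.07 against 9.56, 9.58 and 9.57 and rose by 0.49 ± 0.06 (adjusted p = 2.83e-05). In all, 2 of 30 members rose and 4 fell, against 1.68% and 1.85% of all genes. The list median was -0.06, and with only the 6 arrays 1 rose and 3 fell.

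Some cholesterol genes fell by modest amounts. Of 28 measured members of the synthesis and uptake list 0 rose and 5 fell, against 1.85% of all genes, and the median was -0.13. Msmo1, a sterol oxidase gene, read 11.83, 11.92 and 11.89 in DMSO and 11.41, 11.47 and 11.43 with BRD0476 and fell by 0.45 ± 0.07 (adjusted p = 0.000287). The squalene epoxidase gene Sqle read 10.98, 11.01 and 10.90 against 10.65, 10.52 and 10.59 and fell by 0.38 ± 0.06. Both pairs of groups were apart on every array. Mylip, the ligase that degrades the LDL receptor and so acts on uptake, fell by 0.58 ± 0.10. Hsd17b7 fell by 0.57 ± 0.15, a call lost without DMSO replicate 1 or 2 or BRD0476 replicate 1 or 2 (-0.64 to -0.38, adjusted p = 0.0559 to 0.215). Idi1, which isomerises the isoprenoid building block, fell by 0.32 ± 0.09, and its call held only without DMSO replicate 1 when an array was left out (otherwise -0.34 to -0.29, adjusted p = 0.0784 to 0.136). The count was 3 without DMSO replicate 2 or BRD0476 replicate 1 or 2, and 1, Msmo1, with only the 6 arrays. DMSO replicate 2, the array that stood apart, was the highest for 15 of the 28 members (53.6%, against 23.2% of all genes), and without it the list median was -0.09. The sterol regulatory element letters TCACNCCAC were in 0 of 23 promoters of list members and in 0.974% of all promoters.

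In the glycolysis and glucose-responsive list the largest changes were falls. Pfkfb3, which makes the activator of phosphofructokinase, read 8.92, 8.97 and 8.89 in DMSO and 8.29, 8.02 and 8.18 with BRD0476 and fell by 0.76 ± 0.08 (adjusted p = 8.16e-06). Its 2 dimmer probe sets changed by -0.05 and -0.04, and the mean of the 3 by -0.29. Arrdc4, a glucose-responsive arrestin gene, read 11.42, 11.51 and 11.44 against 10.89, 10.86 and 10.97 and fell by 0.55 ± 0.05 (adjusted p = 2.04e-06). The glycerol phosphate dehydrogenase gene Gpd1 fell by 0.53 ± 0.09. None of their BRD0476 arrays reached a DMSO array. Txnip, the relative of Arrdc4 best known as a glucose-responsive gene of beta cells, changed by -0.08 (95% interval -0.21 to 0.06, adjusted p = 0.663), with overlapping groups. Aldoc, a glycolytic aldolase, was the list's single riser (0.35 ± 0.10, adjusted p = 0.0498), and that call was lost without any array other than DMSO replicate 3 (0.26 to 0.40, adjusted p = 0.0539 to 0.255). The glycolysis list thus had 1 riser and 3 fallers of 30, against 1.68% and 1.85% of all genes, with a median of 0.02. In fatty acid metabolism 2 of 40 members rose and 1 fell, against the same shares, with a median of -0.02. They were the elongase gene Elovl6 (0.43), the lipogenic factor gene Srebf1 (0.38) and the lipid droplet gene Plin2 (-0.34). Elovl6 was lost without replicate 1 or 3 of either group (0.37 to 0.42, adjusted p = 0.0541 to 0.0792), and Srebf1 without DMSO replicate 1 or 3 or BRD0476 replicate 1 or 2 (0.35 to 0.36, adjusted p = 0.0669 to 0.0885). Plin2 was lost without DMSO replicate 1 or BRD0476 replicate 2 or 3 (-0.32 to -0.26, adjusted p = 0.0893 to 0.129). Without DMSO replicate 1, 0 members of that list passed. The respiratory chain list had 0 risers and 0 fallers of 48 by limma (1 up and 1 down at an unadjusted p under 0.05), with a median of 0.02.

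Clock genes changed in both directions. Bmal1, the activator at the core of the clock, read 6.09, 6.29 and 6.11 in DMSO and 5.48, 5.63 and 5.08 with BRD0476 and fell by 0.77 ± 0.19 (adjusted p = 0.0235). Its groups did not overlap, but the call held only without BRD0476 replicate 2 when an array was left out (otherwise -0.81 to -0.60, adjusted p = 0.0515 to 0.123). Per2, which represses BMAL1, read 7.70, 7.69 and 7.67 against 8.03, 8.02 and 8.06 and rose by 0.35 ± 0.09, with adjusted p = 0.0407 on all arrays and 0.0965 to 0.112 without any one of the 6. Dbp, an output gene of the clock, fell by 0.41 ± 0.10, a call kept only without DMSO replicate 2 (otherwise -0.41 to -0.33, adjusted p = 0.0556 to 0.102). The casein kinase gene Csnk1e fell by 0.27 ± 0.06, lost without DMSO replicate 2 or BRD0476 replicate 1 or 2 (-0.28 to -0.25, adjusted p = 0.0525 to 0.0734). These were the 4 called members of 19, against 3.53% of all genes, with a list median of 0.03, and 0 passed without BRD0476 replicate 1 or with only the 6 arrays. The E-box letters CACGTG were in the promoters of 0 of these 4 genes and of 4 of 16 list members, and in 5.59% of all promoters.

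Insulin transcripts were not called, and 2 beta-cell factor genes rose slightly. Ins1 read 14.58, 14.46 and 14.55 in DMSO and 14.50, 14.58 and 14.41 with BRD0476, a change of -0.03 (95% interval -0.14 to 0.08). Ins2 changed by 0.01 (-0.12 to 0.13) and Slc2a2 by 0.06 (-0.06 to 0.17). The groups of all 3 genes overlapped, and changes beyond 0.17 in either direction lie outside these intervals. Nkx6-1, a factor that maintains the beta-cell state, read 8.72, 8.89 and 8.76 against 9.24, 9.24 and 9.50 and rose by 0.53 ± 0.11 (adjusted p = 0.00944; 0.45 and 0.057 without BRD0476 replicate 3; 0.0612 with only the 6 arrays). Pdx1, the insulin gene activator, read 10.65, 10.37 and 10.75 against 11.02, 10.94 and 10.86 and rose by 0.35 ± 0.08, a call lost without DMSO replicate 2 or BRD0476 replicate 1 or 2 (0.24 to 0.35, adjusted p = 0.0546 to 0.0898). Mafa stood just outside the threshold, at 0.24 ± 0.07 (adjusted p = 0.0504). Myt1, a zinc finger factor of endocrine cells, fell by 0.36 ± 0.08, lost without DMSO replicate 1 or 2 or BRD0476 replicate 2 or 3 (-0.34 to -0.31, adjusted p = 0.0712 to 0.0938). The beta-cell factor list had 2 risers and 1 faller of 16, against 1.68% and 1.85% of all genes. Its median was 0.04, and with only the 6 arrays 0 members passed.

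Among insulin, granule and hormone processing genes 3 of 23 rose and 1 fell, against 1.68% and 1.85% of all genes. The list median was 0.03. Ero1b, the oxidase that drives disulfide formation in proinsulin, read 10.51, 10.42 and 10.49 against 11.00, 10.87 and 10.70 and rose by 0.38 ± 0.07 (adjusted p = 0.00256). Its call held with each array left out, but not with only the 6 arrays (limma adjusted p = 0.125). The mean of its 2 probe sets changed by 0.22 (adjusted p = 0.254). The amidating enzyme gene Pam (0.24 ± 0.06) and the neuropeptide gene Npy (0.19 ± 0.05) rose, and both calls were lost without any one of the 6 arrays (0.22 to 0.25, adjusted p = 0.0587 to 0.129, and 0.17 to 0.20, adjusted p = 0.0728 to 0.16). Gad1, which makes GABA, fell by 0.32 ± 0.08, and its call held only without BRD0476 replicate 3 (otherwise -0.33 to -0.30, adjusted p = 0.0524 to 0.0999). In the glucose sensing and secretion list, 1 of 27 rose and 1 fell, against the same 1.68% and 1.85% of all genes. The SNARE gene Snap25 rose by 0.30 ± 0.06 (0.23 without DMSO replicate 2 and 0.27 without BRD0476 replicate 2, adjusted p = 0.0518 to 0.0536). The glucagon receptor gene Gcgr fell by 0.31 ± 0.07, a call lost without DMSO replicate 2 or BRD0476 replicate 2 or 3 (-0.32 to -0.25, adjusted p = 0.0507 to 0.096).

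Among growth and immediate early genes 2 fell. Myc, the growth-promoting transcription factor gene, read 8.61, 8.63 and 8.76 in DMSO and 7.95, 7.93 and 8.08 with BRD0476 and fell by 0.68 ± 0.07 (adjusted p = 1.64e-05). Klf6, a zinc finger immediate early gene, read 9.81, 9.72 and 9.75 against 9.16, 9.17 and 9.08 and fell by 0.63 ± 0.11. Neither gene had an array of one treatment within the range of the other, and both calls held with each array left out and with only the 6 arrays. They were the 2 called members of 36 immediate early and CREB-linked genes (0 rose, median -0.02). Over all genes 3.53% were called, 1.68% up and 1.85% down, the shares to set beside each list count here. Of 36 genes in the list of ribosome biogenesis and MYC targets, Myc itself was the single called one, and the median was -0.03, and ribosomal proteins had 0 of 25 called by limma and 0 at an unadjusted p under 0.05. In the MAP kinase feedback list 2 of 20 rose and 1 fell: besides Spry1, the growth factor gene Areg rose by 0.73 ± 0.18 from a level near background (3.58; called only without DMSO replicate 2 when an array was left out, otherwise 0.64 to 0.77, adjusted p = 0.057 to 0.111), and the ERK phosphatase gene Dusp6 fell by 0.45 ± 0.10, lost without DMSO replicate 2 or BRD0476 replicate 1 or 2 (-0.44 to -0.35, adjusted p = 0.0582 to 0.0912). The lists for DNA replication and G1/S (50 genes) and for mitosis (42 genes) had 0 called genes by limma, with medians of 0 and -0.07. At an unadjusted p under 0.05 they had 2 up and 3 down, and 0 up and 3 down.

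In the apoptosis and BCL2 list 1 of 36 genes was called and in the p53-linked list 2 of 20, against 3.53% of all genes. Bcl2l11, which encodes the pro-apoptotic protein BIM, read 9.15, 9.33 and 9.14 in DMSO and 8.50, 8.52 and 8.54 with BRD0476. All BRD0476 arrays were lower, and the gene fell by 0.68 ± 0.06 (adjusted p = 2.04e-06) on the brightest of its 3 probe sets; the others, near background, changed by -0.07 and -0.04, and the mean of the 3 by -0.26. It was the single called gene of 36 in the apoptosis and BCL2 list, whose median was 0.01. In the p53-linked list 0 of 20 rose and 2 fell: Gadd45a, a growth arrest gene, read 10.39, 10.52 and 10.51 against 9.92, 10.00 and 9.95 and fell by 0.52 ± 0.07 (adjusted p = 0.000161), and Sesn1, which inhibits mTOR, fell by 0.41 ± 0.11, a call lost without any one of the 6 arrays (-0.46 to -0.34, adjusted p = 0.0506 to 0.173).

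Transcripts of the JAK-STAT and ubiquitin protease genes linked to the compound were mostly not called at 6 h without cytokines. Over all genes 3.53% were called, the share to set beside the list counts below. Usp9x read 9.84, 10.07 and 9.81 in DMSO and 9.95, 9.83 and 10.03 with BRD0476, a change of 0.03 (95% interval -0.13 to 0.19). Jak2 changed by 0.05 (-0.24 to 0.33) and Socs1, the feedback inhibitor of JAK kinases, by 0.02 (-0.40 to 0.44) near background. For all 3 the groups overlapped, and the intervals of Jak2 and Socs1 were wider than that of Usp9x. Il6r, the interleukin-6 receptor gene, was the single called gene among 37 of the JAK-STAT list and fell by 0.41 ± 0.08. It read 9.28, 9.52 and 9.27 in DMSO and 8.92, 8.89 and 9.03 with BRD0476 (limma adjusted p = 0.00405, and 0.106 with only the 6 arrays). Of 38 ubiquitin proteases only Usp3 passed, with a fall of 0.39 ± 0.10 that was kept only without DMSO replicate 3 (otherwise -0.42 to -0.35, adjusted p = 0.0506 to 0.12). Among 38 proteasome and ubiquitin genes 2 passed. The call of the autophagy receptor gene Sqstm1 (0.25) was lost without any one of the 6 arrays (0.22 to 0.27, adjusted p = 0.0698 to 0.152), another bright probe set of the gene changed by -0.05, and the mean of its 4 probe sets changed by 0.04 (adjusted p = 0.82). The call of the proteasome subunit gene Psmc4 (0.21) held only without BRD0476 replicate 3 (otherwise 0.17 to 0.23, adjusted p = 0.0599 to 0.182). Of 33 NF-κB genes only Relb passed, and the inhibitor gene Nfkbia changed by 0.26 ± 0.08 (adjusted p = 0.0877).

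Interferon target genes were not called, and BRD0476 replicate 1 read high for some of them. Of 45 measured members 0 rose and 0 fell by limma (9 up and 1 down at an unadjusted p under 0.05). Over all genes 3.53% were called, and the list median was 0.10. Cxcl10, a chemokine that interferon-gamma induces, read 4.18, 3.90 and 3.94 in DMSO and 7.16, 3.90 and 4.33 with BRD0476. Replicate 1 alone was high, and the other 5 arrays lay between 3.90 and 4.33. The change of Cxcl10 was 1.12 ± 0.47 (adjusted p = 0.247), and it was 0.11 without BRD0476 replicate 1 and 1.74 (adjusted p = 0.0455) without BRD0476 replicate 2. On replicate 1, 7 genes read at least 1 above every other array, against 0 genes for each of the other 5 arrays: Cxcl10, Gbp2, Cxcl11, Rsad2 and Cxcl9 of the interferon list, and Ubd and LOC100910973. Replicate 1 was the highest array for 20 of the 45 members (44.4%), against 20.6% of all genes, a share that was larger still in the ATF4 list. Without it the list median was 0.04, with 0 risers and 1 faller, and without BRD0476 replicate 2, BRD0476 replicate 3 or DMSO replicate 2 there were 3, 2 and 2 risers. Irf1, an interferon-driven transcription factor gene, changed by 0.08 (95% interval -0.15 to 0.32).

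**Figure D4:**
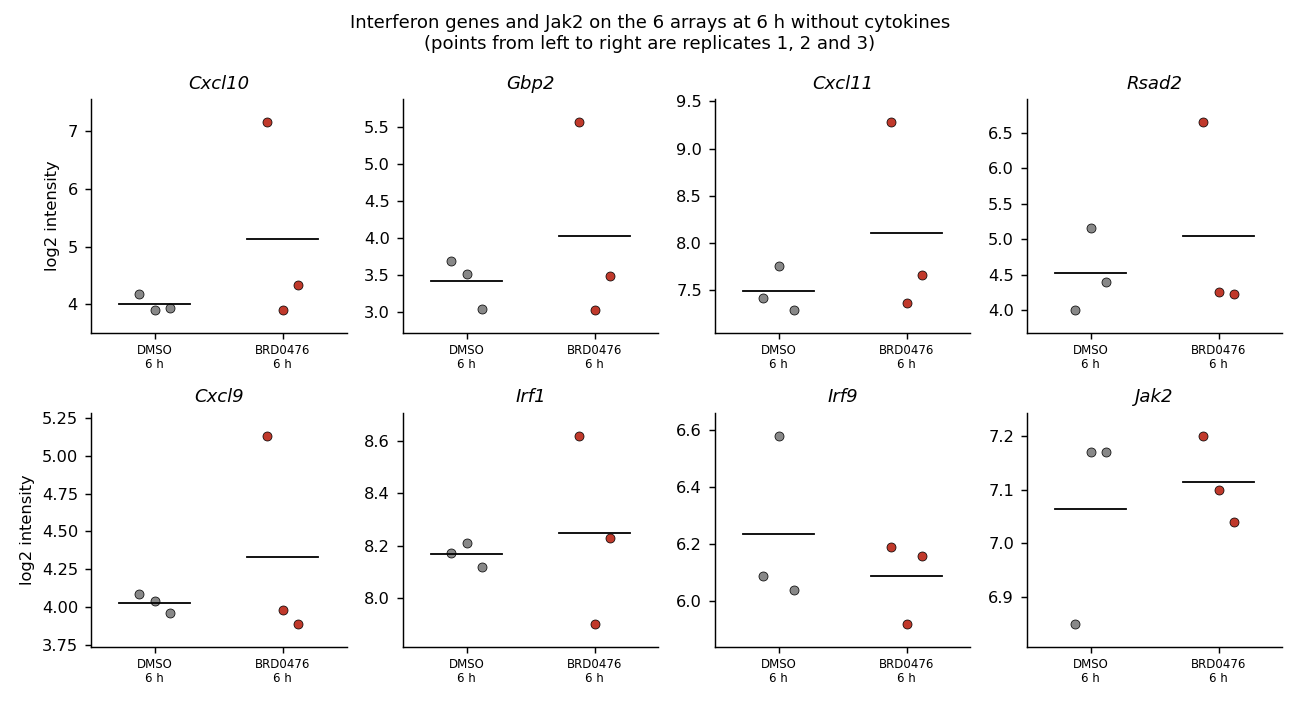
Log2 intensity of 7 interferon-responsive genes and Jak2 on the 6 arrays at 6 h without cytokines; points from left to right in each group are replicates 1, 2 and 3, and the bar is the mean. BRD0476 replicate 1 lies at least 1 above all other arrays for Cxcl10, Gbp2, Cxcl11, Rsad2 and Cxcl9, while the Jak2 arrays of the groups overlap.

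Markers of other cell types were not called, apart from a keratin gene. Of 11 other islet endocrine, 16 leukocyte, 16 fibroblast and 11 endothelial markers 0 rose and 0 fell by limma, with 1, 1, 0 and 1 at an unadjusted p under 0.05. Of 17 acinar and duct markers 1 fell: Krt7 read 11.14, 11.15 and 11.18 in DMSO and 10.82, 10.75 and 10.63 with BRD0476. The fall was 0.42 ± 0.06 (limma adjusted p = 0.000155, and 0.0613 with only the 6 arrays), while the other duct keratin gene Krt19 stayed near background (3.35 and 3.54). At an unadjusted limma p under 0.05 the acinar and duct list had 2 members up and 3 down, Krt7 included. Its summed linear intensity was 2796 to 2843 in DMSO and 2109 to 2292 with BRD0476. For leukocyte markers the sums were 244 to 275 and 263 to 275, and for fibroblast markers 3629 to 3759 and 3659 to 4285. For other islet endocrine markers they were 1831 to 2178 and 2041 to 2173. Endothelial markers summed to 593.1 to 640 in DMSO and 532.5 to 592.5 with BRD0476, so that these ranges, like those of the acinar and duct list, did not overlap. Such sums weigh the brightest gene most, here Krt7 at 11.16 and, for endothelium, Esam at 8.57 in DMSO. Esam changed by -0.21 and was not called. The median changes of the acinar and duct list and of the endothelial list were 0.04 and 0.01. The part of other cells in the changes above was not tested. Of 33 actin, tubulin and adhesion genes 3 fell, against 1.85% of all genes, and 0 passed with only the 6 arrays: Stmn2 (-0.41), Cdh1 (-0.28) and Stmn1 (-0.22). Cdh1 was lost without DMSO replicate 2 or BRD0476 replicate 1 or 2 (-0.28 to -0.23, adjusted p = 0.0533 to 0.0719), and Stmn1 without DMSO replicate 1 or 3 or BRD0476 replicate 1 or 2 (-0.21 to -0.18, adjusted p = 0.0974 to 0.117). The heat shock (19 genes), Wnt (19), Notch (21), splicing (31) and iron (14) lists each had 1 called gene, against 3.53% of all genes.

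Most genes called at 6 h changed in the same direction at 12 h, on arrays that the comparisons do not share. At 12 h 663 genes were called (4.66%), and 360 (without DMSO replicate 1) to 431 (without BRD0476 replicate 3) with any one of the 6 arrays left out. Of the 502 genes called at 6 h, 480 changed in the same direction at 12 h (95.6%), and 262 were called the same way, which is 52.2% of the 6 h genes and 39.5% of the 12 h genes. Over the 502 genes the changes correlated with r = 0.86, and over all 14217 genes with r = 0.60, a description across genes that are not independent. Gfra1 rose by 1.36 and Lrrc39 by 1.96 at 12 h, and Mpv17l fell by 1.41 and Klf9 by 0.91. Bmal1 fell by 1.45 at 12 h (adjusted p = 3.93e-05), Per2 rose by 0.84 and Nkx6-1 rose by 0.51. Hspa5 changed by 0.07 at 12 h (adjusted p = 0.678), and the ER chaperone list had 3 risers then, with a median of 0.10, whereas the ATF4 list had 12 risers and 1 faller with a median of 0.22.

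For 10 genes (0.0703%) the effect of BRD0476 itself differed between the times, by the test of 12 h minus 6 h. Chac1 rose by 0.64 at 6 h and by 1.66 at 12 h, a difference of 1.02 ± 0.14 (adjusted p = 0.00348), and its DMSO level fell from 9.09 to 7.10 between the times while its BRD0476 level went from 9.73 to 8.76. Atf4 rose by 0.28 and 0.83, a difference of 0.55 ± 0.09, again with a lower DMSO level at 12 h (12.21 and 11.35). Dbp fell by 0.41 at 6 h and rose by 0.50 at 12 h, and it was the only gene of the 502 called in opposite directions. Fdps, a cholesterol synthesis gene, changed by -0.20 at 6 h (adjusted p = 0.0829) and rose by 0.46 at 12 h. It was the single member of the 28 in the cholesterol list whose difference between the times was called, and at 12 h that list had 5 up and 3 down. Spp2 fell by 1.25 at 6 h and by 0.43 at 12 h, and the co-repressor gene Tle3 rose by 0.54 at 6 h and changed by -0.09 at 12 h. For Id1, which fell by 0.56 at 6 h and changed by -0.01 at 12 h, the difference between the times was not called. The count of 10 was 5 with only the arrays compared, and between 4 and 11 with an array left out; it was 4 without replicate 1 of either 12 h group, 5 without BRD0476 replicate 3 at 12 h, and 6 without BRD0476 replicate 2 at 6 h or DMSO replicate 3 at 12 h.

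**Figure D5:**
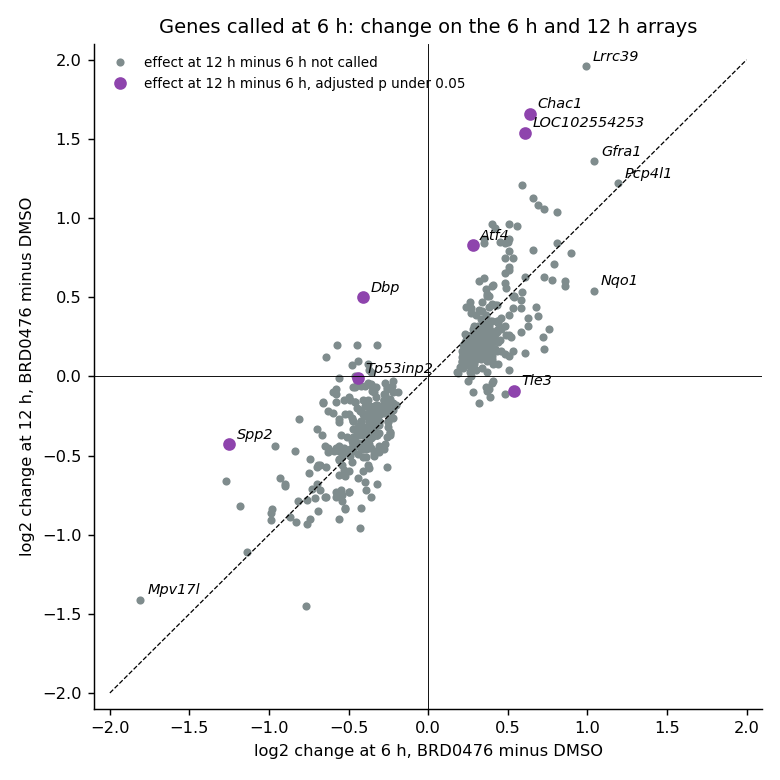
Each point is one of the 502 genes called at 6 h, with its log2 change at 6 h on the horizontal axis and its log2 change at 12 h on the vertical axis, both BRD0476 minus DMSO without cytokines; the dashed line marks equal changes. Of these genes 480 lie in the quadrants of equal direction, Dbp has opposite calls, and purple points are the genes whose effect differed between the times.

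With cytokines present, BRD0476 changed far more genes, and its effect on the genes described here often differed. At 6 h with cytokines 6261 genes were called (44%), and for 4717 genes (33.2%) the effect with cytokines differed from that without. Of the 502 genes called without cytokines, 221 were called the same way with cytokines and 138 the opposite way, and for 347 the difference of the effects was called. The changes with and without cytokines correlated with r = 0.25 over the 502 genes. Some responses were alike: Pcp4l1 rose by 1.18 with cytokines, Gfra1 by 1.13 and Nkx6-1 by 0.51, Mpv17l fell by 1.62 and Tgm2 fell by 0.82, and for none of these 5 was the difference called. Nqo1 rose further with cytokines (1.93, difference 0.88, adjusted p = 0.000407), as did Car8 (1.79), and Id3 fell further (-2.65), as did Myc (-2.25). The ATF4 list had 3 risers and 23 fallers of 36 and a median of -0.36 with cytokines. Chac1 fell by 1.34 there (difference -1.99, adjusted p = 1.34e-09) and Trib3 by 1.78. Lpl fell by 1.18 without and rose by 0.42 with cytokines, and Gpd1 fell by 0.53 and rose by 1.36. Usp9x and Jak2, which did not pass without cytokines, rose by 0.92 and fell by 1.20 with them.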

How the data were processed

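Total RNA of INS-1E cells was labelled with biotin and hybridised to 24 single-colour Affymetrix arrays, 3 per group. The authors deposited linear intensity values made with RMA, per the submitters' processing notes, a method that removes background, equalises the arrays and combines probes into probe sets. The RMA version, chip definition and return to a linear scale are not given in the sources used here. From 31099 probe sets, 57 controls and those without a single gene symbol were left out, and each of 14217 genes was read by its brightest probe set, by the mean of the 24 arrays (4525 genes had several). Log2 intensity was fitted with limma 3.58.1 in R 4.3.3, with 8 group means over all 24 arrays, equal weights and no block, and p-values were adjusted by Benjamini and Hochberg over all genes. RMA values carry no detection calls and are known to compress changes near background, and 3 arrays per group limit the precision. Deviations of same-numbered arrays from their group means correlated at 0.12, -0.32 and -0.27, and those of differently numbered arrays at -0.26 to 0.39. With 3 arrays per group such values cannot show whether arrays were paired, and the fit treated them as unpaired.

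Genes named in the text are the 15 largest rises and falls with non-overlapping arrays and a mean of at least 6 in the higher group, up to 4 called members of each of 40 lists (1092 distinct genes measured), a fixed panel, and the genes whose effect differed most with time or cytokines; other called list members were named after their values were seen, as were Krt19, Ubd, LOC100910973 and Irf9. The comparison, members and lists were chosen with earlier results of these data known. The steps were tested on simulated data. Alternatives were array weights, only the arrays compared, a replicate block, an intensity trend, probe set rules, dim genes left out, centring, quantile normalization and leaving out each array.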

Additional observations from a re-analysis of the deposited data

Results flagged for a closer look

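The effect of BRD0476 without cytokines differed between 6 and 12 h for 10 genes, by the limma test of the effect at 12 h minus that at 6 h. In 9 of them the difference was positive. It was 1.02 on the log2 scale for Chac1, 0.93 for LOC102554253, 0.91 for Dbp, 0.82 for Spp2, 0.75 for the amino acid transporter gene Slc1a4, 0.66 for Fdps, 0.63 for the cysteine tRNA ligase gene Cars1, 0.55 for Atf4 and 0.43 for Tp53inp2, and it was -0.63 for Tle3. For Spp2 and Tp53inp2 a positive difference means a smaller fall at 12 h (-0.43 and -0.01) than at 6 h (-1.25 and -0.44). Slc1a4, Cars1 and Fdps were not called at 6 h (0.14, 0.25 and -0.20) and rose at 12 h (0.89, 0.88 and 0.46).

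The effect of BRD0476 at 6 h with cytokines differed from that without for 4717 genes.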

How the results depend on the processing

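At 6 h 502 genes were called (239 up, 263 down). Array weights gave 1123 (617 and 506), only the 6 arrays compared 108 (43 and 65), and leaving out one array 286 to 399 (107 to 194 up, 143 to 237 down; 171 down without DMSO replicate 2, 107 up without BRD0476 replicate 1). The replicate block gave 473 calls on all arrays and 0 (0 up and 0 down) on only these 6, where few residual degrees of freedom remain (1407 genes at an unadjusted p under 0.05). At 12 h 663 became 1929 with array weights, 420 with the replicate block on only the arrays compared, and 360 to 431 with an array left out. The 10 genes that differed between the times became 66, 5 with only the arrays compared, 1 with that block, and 4 to 11. The causes were not tested. No other setting moved these counts, or those of the cytokine comparisons, by over 1.5 times. No called gene changed sign, which says little, since genes with non-overlapping groups cannot do so when an array is left out. Of the 96 genes called at 6 h that the naming rule picked, not all of them discussed above, 57 held in all 6 fits that left out an array, 42 with only the 6 arrays and 0 with the block added; 27 were lost without DMSO replicate 2, and the replicate block on all arrays lost 4. The spread between 3 arrays and signals near background limit what could be called.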
